A study of Arabidopsis thaliana with 3 samples.

Results

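The mRNAs described here are those of 40 histone genes of Arabidopsis thaliana, chosen by locus identifier from the families of the core histones, their variants and the linker histone. All 40 had reads, among 16577 loci with reads in all, and they carried 7169 of 442916 reads. The genes comprised 8 for H4, 5 for H3.1, 3 for H3.3, 1 for the centromeric variant CENH3, 3 for H2A, 2 for H2A.X, 3 for H2A.W, 3 for H2A.Z, 9 for H2B and 3 for H1. The reads come from TAIL-seq, a paired-end method that sequences each mRNA from inside its body and from its 3′ end, so that a gene is paired with its poly(A) tail and any nucleotides added after it. Total RNA was taken from flower buds of wild-type plants (WT, Col-0) grown on soil under long days, in 3 biological replicates that form 1 group. No mutant or treatment was analysed here, so every comparison is between mRNAs within the same libraries. The labels name the tissue as flowers, and the paper's TAIL-seq methods name flower buds. Such tissue is a mixture of dividing and non-dividing cells, and the reads do not tell in which cells a tail was found.

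Histones pack DNA into nucleosomes, each an octamer of H2A, H2B, H3 and H4 closed by the linker histone H1. H4, H3.1, canonical H2A and H2B are made mainly while DNA is replicated, whereas H3.3 and H2A.Z replace them in chromatin outside replication. In animals the mRNAs of replication-dependent histones end in a stem-loop instead of a poly(A) tail, and oligouridylation takes part in their decay. Plant histone mRNAs are polyadenylated, and uridines (Us) are added to the deadenylated tails of plant mRNAs mainly by the terminal uridylyltransferase URT1.

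The tails are shown first because the results below are about their length and their last nucleotides. Written from 5′ to 3′, with the poly(A) stretch in lower case and added Us in capitals, the most frequent histone tail without added nucleotides had 17 As and was seen in 402 of 6455 such reads. The most frequent tail with 1 U (67 of 501 reads) and with 2 Us (21 of 161 reads) both had 16 As before the Us. The longest U extension of any histone read had 4 Us, in 1 read of the H3.1 gene AT5G10400.
17 As: aaaaaaaaaaaaaaaaa
16 As and 1 U: aaaaaaaaaaaaaaaaU
16 As and 2 Us: aaaaaaaaaaaaaaaaUU
23 As and 4 Us: aaaaaaaaaaaaaaaaaaaaaaaUUUU

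Replicate 1 held 222681 reads, replicate 2 held 113458 and replicate 3 held 106777, and histone mRNAs made up 1.92%, 1.27% and 1.35% of them. At least 20 pooled reads were reached by 34 of the 40 genes, and 18 reached 20 reads in every library. Depth was uneven among the genes, and the H3.3 gene AT4G40040 alone gave 27.8%, 14.3% and 13.6% of the histone reads in replicates 1, 2 and 3. The read names show that replicates 2 and 3 shared a sequencing run and that replicate 1 had its own. The libraries of the shared run also stood apart in content, since 22 mRNAs that the study followed by 3′RACE-seq, together with AT2G45160, took up 1.58% of replicate 1 but 29.6% of replicate 2 and 23.4% of replicate 3. These mRNAs belong to the set with which histones are compared. The main differences from other mRNAs and the tests of single mRNAs were therefore computed without them as well.

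Pooled over the family, uridylation of histone mRNAs, the share of tails ending in 1 or more added Us, did not stand apart from that of other mRNAs in one direction. Replicates 1, 2 and 3 had 6.91%, 11.2% and 15.4% uridylated histone tails, while all other mRNAs had 7.42%, 9.94% and 11.6%. Histone tails were thus uridylated less often than the rest in replicate 1 and more often in replicates 2 and 3. The difference was 1.54 ± 2.18 percentage points (SD, n = 3; exact two-sided sign-flip permutation test over the libraries, p = 0.50). With 3 libraries this test cannot give a p under 0.25. Without the 3′RACE-seq mRNAs in the comparison it was 0.88 percentage points. The lower value of replicate 1 depended on the H3.3 gene AT4G40040. Without that gene, histone tails were uridylated in 8.03%, 11.8% and 16.0% of reads, above other mRNAs in each library. The difference was then 2.29 percentage points (exact sign-flip permutation test, p = 0.25, the smallest possible). The direction also depended on how mRNAs were weighted and summarised. As a mean of the percentages of single mRNAs with at least 5 reads in a library, the difference was -0.98 percentage points. Medians over single mRNAs with at least 20 pooled reads went the other way. They were 10.9% for histones and 8.00% over all mRNAs. When uridylation of the other mRNAs was standardised to the poly(A) lengths of the histone reads, the difference was -0.68, 1.56 and 3.45 percentage points in replicates 1, 2 and 3.

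Pooled over the family, the U extensions of histone tails were shorter than those of other mRNAs. Among uridylated histone tails, 26.7%, 25.3% and 26.6% had 2 or more Us in replicates 1, 2 and 3, and 31.8%, 37.0% and 38.2% of those of other mRNAs did. The histone share was the lower one in 3 of 3 libraries and hardly varied between them. The difference was -9.46 ± 3.77 percentage points (SD, n = 3), at the smallest p the exact sign-flip permutation test allows (p = 0.25). Extensions of 3 or more Us made up 2.70%, 2.47% and 2.70% of uridylated histone tails against 5.86%, 9.88% and 9.78% elsewhere. The latter values include the 3′RACE-seq mRNAs. The difference in tails with 2 or more Us was smaller with equal weight of mRNAs (-4.14) and without the 3′RACE-seq mRNAs in the comparison (-5.78), but kept its sign. It did not hold for every histone type. The genes of H1, H2A.X, H2A.W and CENH3 together had 38.9%, 28.6% and 39.0% of such tails, lower than other mRNAs in replicate 2 only. Tails ending in G or C were rare among histone reads, at 0.30%, 0.90% and 0.56%, against 0.62%, 0.94% and 0.85% in other mRNAs.

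Histone tails were concentrated in the range of 10 to 25 As, which also held 85.8%, 92.6% and 92.8% of their uridylated tails in replicates 1, 2 and 3. That range held 54.3%, 71.5% and 68.4% of histone tails in replicates 1, 2 and 3, against 49.2%, 62.3% and 62.5% of the other tails. The histone share was higher in 3 of 3 libraries, by 6.71 ± 2.15 percentage points (SD, n = 3; exact sign-flip permutation test, p = 0.25, the smallest possible). Without the 3′RACE-seq mRNAs in the comparison the difference was 5.52 percentage points. Both ends of the distribution were thinner. Tails of over 40 As were 13.9%, 3.19% and 3.75% of histone tails against 18.6%, 6.57% and 6.51%, and tails of under 10 As were 1.35%, 1.25% and 2.08% against 1.78%, 3.1% and 3.69%. The other mRNAs here include those followed by 3′RACE-seq, which were frequent in replicates 2 and 3, and the shares without them are not given. The median poly(A) length of tails without added nucleotides was 25, 21 and 22 nt for histones and 26, 23 and 22 nt for the rest, a difference of -1.0 ± 1.0 nt (SD, n = 3; exact sign-flip permutation test, p = 0.50).

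**Figure D1:**
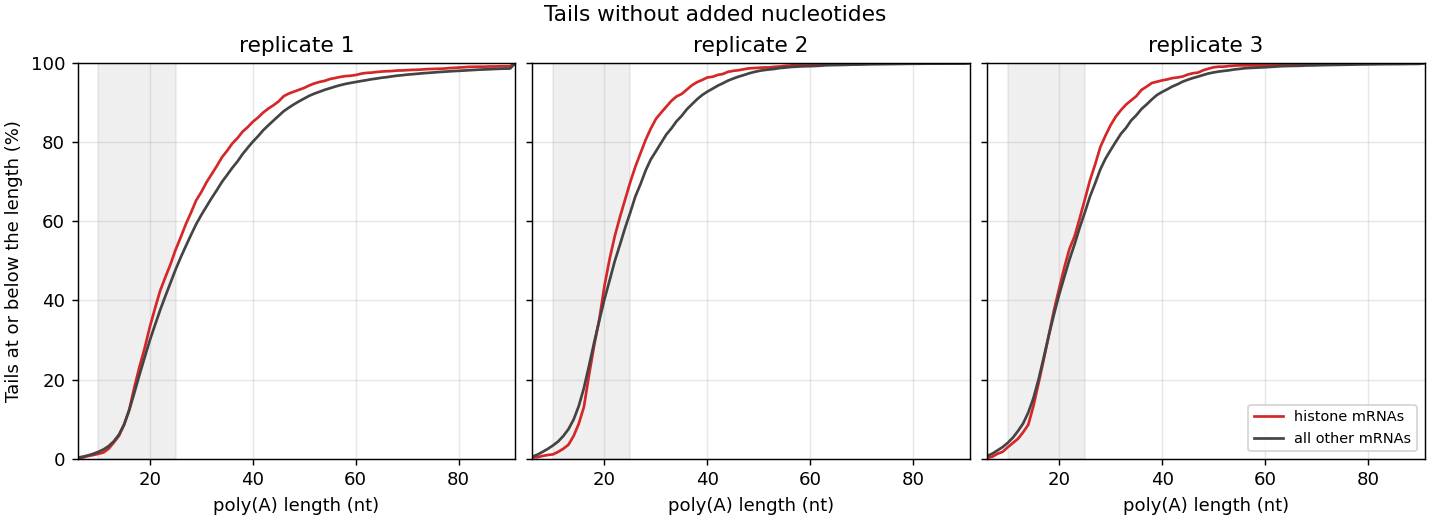
Cumulative share (%) of tails without added nucleotides by poly(A) length (nt), for histone mRNAs (red) and all other mRNAs (grey), 1 panel per replicate, with 10 to 25 As shaded. Above the medians of 25, 21 and 22 nt the histone curve runs above the other one in each replicate, and replicate 1 has the longest tails in both sets.

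Within the family, the level of uridylation differed by histone type. The 25 genes of H4, H3.1, H2A and H2B, called here S-phase type after the histone they encode and not after a measured cell cycle stage, were uridylated in 9.04%, 14.1% and 18.4% of reads in replicates 1, 2 and 3. The 6 genes of H3.3 and H2A.Z, the replacement type, were uridylated in 4.03%, 6.86% and 9.96%. The remaining 9 genes, of H1, H2A.X, H2A.W and CENH3, were at 8.59%, 12.2% and 17.6%, close to the S-phase type. The higher level was thus not particular to the S-phase type. Compared with the replacement type, the S-phase type was higher in 3 of 3 libraries, by 5.0, 7.20 and 8.48 percentage points. The mean difference was 6.89 ± 1.76 (SD, n = 3; exact sign-flip permutation test, p = 0.25, the smallest possible). It was 7.46 without AT4G40040 and 6.99 with equal weight of mRNAs. No read was assigned to genes of both types. Over the 7 comparisons of this kind in the text, Benjamini-Hochberg adjustment raised the p-values to 0.583 for 6 of them and 0.75 for uridylation among tails of 10 to 25 As.

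Median poly(A) lengths of the S-phase type (25, 22 and 22 nt) and the replacement type (24, 21 and 22 nt) lay within 1 nt of each other, with a difference of 0.67 ± 0.58 nt (SD, n = 3; exact sign-flip permutation test, p = 0.50). Among tails of 10 to 25 As alone, uridylation was 14.3%, 18.7% and 24.8% for the S-phase type and 6.69%, 8.95% and 13.8% for the replacement type. The mean difference there, computed after the data had been seen, was 9.48 percentage points. For histones as a whole, uridylation among tails of 10 to 25 As was 10.9%, 14.5% and 20.9%, against 12.3%, 13.7% and 15.9% in other mRNAs (difference 1.49 ± 3.23 percentage points, SD, n = 3; exact sign-flip permutation test, p = 0.75). Without the 3′RACE-seq mRNAs that difference was 0.79 percentage points.

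Among the types, H1 and H4 had the highest mean uridylation, H2B, H2A.X, H2A, H3.1 and H2A.W followed, and H3.3 and H2A.Z had the lowest apart from CENH3 with its 22 reads. H4 mRNAs were uridylated in 11.3%, 15.3% and 21.7% of reads in replicates 1, 2 and 3 (mean 16.1% ± 5.21, SD, n = 3). H2B mRNAs were at 7.85%, 13.9% and 16.7%, and H2A.Z mRNAs at 3.03%, 5.13% and 5.84%. The libraries ranked as they did in all other mRNAs in every type but CENH3 and H2A. H1 averaged 18.2% ± 8.33, H2A.X 12.7% ± 8.03, H2A 12.6% ± 4.02, H3.1 12.5% ± 5.38, H2A.W 10.7% ± 2.75, H3.3 7.88% ± 3.83 and H2A.Z 4.67% ± 1.46 (SD, n = 3). H2B averaged 12.8% ± 4.51. Neighbours in this order did not differ beyond the larger of their SDs. These SDs include the rise between libraries that most types shared, so they do not show whether neighbours differed within a library. H4 was above H2B, H2A.W above H3.3 and H3.3 above H2A.Z in each library. With CENH3 left aside, the order of the remaining neighbours changed between libraries.

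**Figure D2:**
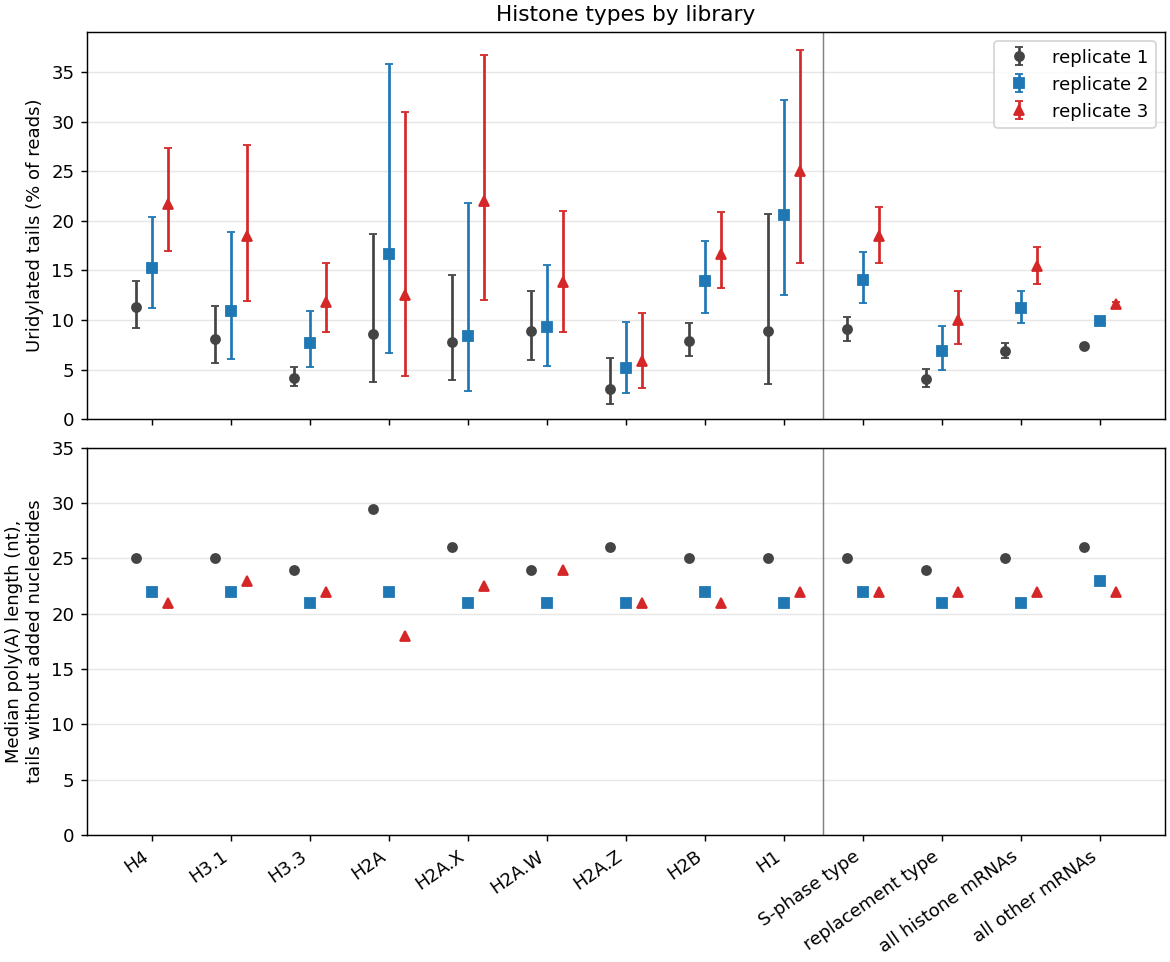
Uridylated tails (% of reads, top) and median poly(A) length of tails without added nucleotides (nt, bottom) for 9 histone types, for the S-phase and replacement types, for all histone mRNAs and for all other mRNAs. Symbols mark replicates 1, 2 and 3 and bars are 95% Wilson intervals, which cover counting error only; H2A.Z lies lowest, at 3.03%, 5.13% and 5.84%.

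The closest pairs of replication-linked and replacement histones were set side by side after the levels of the types had been seen, so these values are a description. H3.1 exceeded H3.3 in each library, with 8.08% against 4.18%, 10.9% against 7.63% and 18.5% against 11.8%, a difference of 4.59 ± 1.81 percentage points (SD, n = 3). Canonical H2A exceeded H2A.Z likewise, with 8.62% against 3.03%, 16.7% against 5.13% and 12.5% against 5.84%. H2A rests on 106 reads only, and H2A.Z on 541. Of uridylated tails, 27.1%, 27.3% and 28.8% of the S-phase type had 2 or more Us, against 19.4%, 17.1% and 10.2% of the replacement type. H1 had the largest pooled share of such tails, 53.1% of 32 uridylated reads (95% Wilson interval 36.4 to 69.1%), and H2A.Z the smallest of the types with more than 1 uridylated read, 8.33% of 24 (2.32 to 25.8%).

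Each mRNA with at least 20 reads was also tested singly against all other mRNAs, with the Cochran-Mantel-Haenszel chi-square test stratified by library and Benjamini-Hochberg adjustment over 3439 mRNAs. Of all these mRNAs 9.51% were called above the rest and 5.76% below it at an adjusted p under 0.05. Of the 34 histone mRNAs tested, 4 were above and 2 below, close to those shares. Uridylation odds were higher than in other mRNAs for 24 of the 34 and lower for 10, while 45.6% of all mRNAs were on the higher side, and the median odds ratio was 1.22 for histones and 0.90 for all mRNAs. The median uridylation percentage of the 34 was 10.9% (range 0 to 18.6%), against 8.00% (interquartile range 4.20 to 14.3%) over all 3439.

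**Figure D3:**
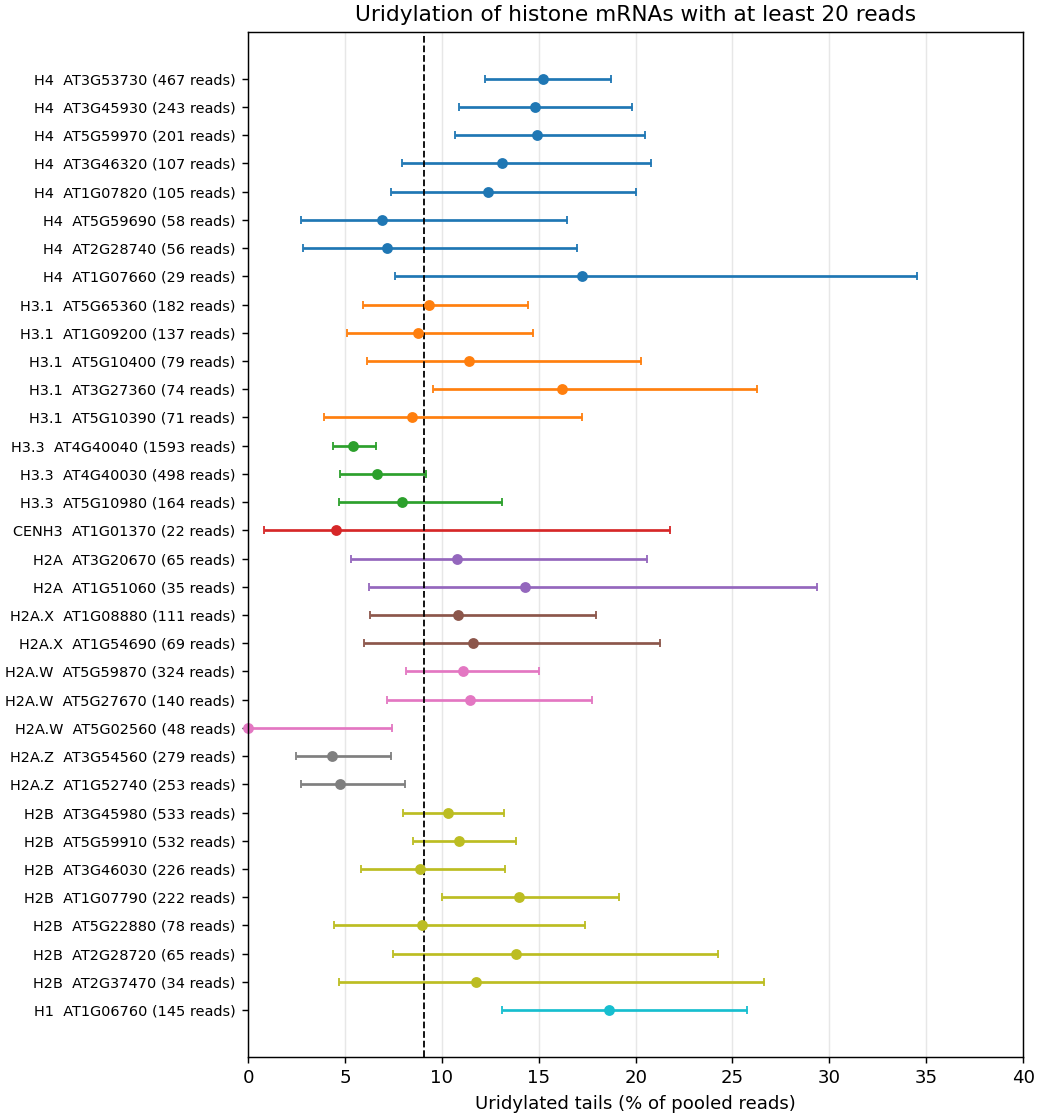
Pooled uridylation (% of reads) of the 34 histone mRNAs with at least 20 reads, by type and with read numbers, with 95% Wilson intervals and a dashed line at the pooled level of all other mRNAs. The H3.3 and H2A.Z genes lie to the left of the line, and H4 gene AT3G53730 and H1 gene AT1G06760 to the right at 15.2% and 18.6%.

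H4, the core histone with no variant in this set, had 3 of its 8 genes called above other mRNAs, where 9.51% of all mRNAs tested were. These 3 were the H4 genes with the most reads. AT3G53730 (TAIR10.1 chromosome 3, 19912385 to 19913515, minus strand) was uridylated in 12.1%, 19.8% and 17.1% of 239, 111 and 117 reads, above the level of other mRNAs in every library (odds ratio 1.80, n = 467 reads, adjusted p = 0.000106). AT5G59970 (chromosome 5, 24145831 to 24146729, minus strand) was at 11.7%, 23.8% and 26.9% of 154, 21 and 26 reads (odds ratio 1.97, n = 201 reads, adjusted p = 0.00842). AT3G45930 (chromosome 3, 16883316 to 16884009, plus strand) was at 13.2%, 12.8% and 22.2% of 159, 39 and 45 reads (odds ratio 1.86, n = 243 reads, adjusted p = 0.00816). These 3 genes were thus high in all 3 libraries. The other H4 genes ranged from 6.90% in AT5G59690 to 17.2% in AT1G07660, and none of those 5 passed the test. They had fewer reads, from 29 in AT1G07660 to 107 in AT3G46320, so the number called also depends on depth.

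Some reads were assigned to more than 1 H4 gene, which makes the values of those genes uncertain. AT3G45930 shared 73 reads with AT3G46320, which is 30.0% of its reads, AT5G59970 shared 22 with AT5G59690, and AT1G07660 shared 25 of its 29 reads with AT1G07820. AT3G53730 shared none. With shared reads removed, the number of histone mRNAs above was still 4. In replicate 1 alone none of the H4 calls held in the chi-square test (adjusted p = 0.0795 for AT3G53730, 0.0839 for AT3G45930 and 0.331 for AT5G59970). AT3G45930 also lost its call in the chi-square test without replicate 1 (adjusted p = 0.261), and both AT3G45930 (0.0729) and AT5G59970 (0.0782) without replicate 3. AT3G45930 lost it too with poly(A) length class as a further stratum (0.0662). When only tails with 2 or more Us counted as uridylated, none of the 3 passed.

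The 3 H3.3 genes had lower pooled percentages than the 5 H3.1 genes, but single genes of the variants overlapped within libraries. The H3.3 gene AT4G40040 (chromosome 4, 18557149 to 18558945, minus strand), the most abundant histone mRNA, was uridylated in 3.95%, 7.73% and 11.7% of 1190, 207 and 196 reads. This was below other mRNAs in replicates 1 and 2 and level with them in replicate 3, where other mRNAs were at 11.6% (odds ratio 0.63, n = 1593 reads, adjusted p = 0.000562). The call rested on replicate 1: adjusted p was 0.000225 in replicate 1 alone and 0.868 without it. With overdispersion between libraries in the variance it was 0.0641. The neighbouring H3.3 gene AT4G40030 was at 4.29%, 11.3% and 9.18% of 303, 97 and 98 reads and did not pass the test (n = 498 reads, adjusted p = 0.369), nor did the third H3.3 gene AT5G10980, at 7.35%, 0% and 17.4% of 68, 50 and 46 reads. None of the 5 H3.1 genes passed it, with pooled percentages from 8.45% in AT5G10390 to 16.2% in AT3G27360. The H3.1 gene with the most reads, AT5G65360, was at 6.06%, 6.25% and 17.6%. CENH3 (HTR12), which marks centromeres, had 22 reads, of which 1 was uridylated.

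In the H2A family, both H2A.Z genes with enough reads were low. HTA11 (AT3G54560; chromosome 3, 20196140 to 20197726, plus strand) was uridylated in 2.24%, 7.27% and 5.56% of 134, 55 and 90 reads, below other mRNAs in every library (odds ratio 0.44, n = 279 reads, adjusted p = 0.0401). HTA9 (AT1G52740), the other H2A.Z gene with enough reads, was at 4.49%, 4.0% and 6.25% of 89, 100 and 64 reads, also lower in every library, and did not pass (odds ratio 0.47, n = 253 reads, adjusted p = 0.0805). In the chi-square test the HTA11 call was lost without replicate 1 (adjusted p = 0.334), without replicate 3 (0.185) and in replicate 1 alone (0.224), and overdispersion in the variance also ended it (0.0716). With tails compared within length classes it was kept (0.0392).

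Members of H2A.W, a variant of heterochromatin, were read at unequal depth. HTA6 (AT5G59870) was at 10.5%, 9.28% and 14.3% of 143, 97 and 84 reads and HTA7 (AT5G27670) at a pooled 11.4%. HTA12 (AT5G02560) had 0 uridylated tails among 48 reads, which allows a share of up to 6.25%, and did not pass the test (n = 48 reads, adjusted p = 0.271). Of its reads, 38 came from replicate 1, the library with the lowest uridylation. Whether HTA12 differs from the other members was not tested. H2A.X, which is phosphorylated at DNA breaks, was at 10.8% in H2AXA and 11.6% in GAMMA-H2AX, and canonical H2A at 10.8% in HTA13 and 14.3% in HTA10. None of these passed the test.

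H2B genes lay between the extremes, and none of the 7 tested was called. HTB9 (AT3G45980), with the most reads, was at 7.03%, 15.1% and 20.8% of 370, 86 and 77 reads, below other mRNAs in replicate 1 and above them in the other two. HTB4 (AT5G59910) was at 9.34%, 12.7% and 12.1% of 257, 134 and 141 reads, above other mRNAs in each library (odds ratio 1.21, n = 532 reads, adjusted p = 0.495). HTB1 (AT1G07790) was the highest of the H2B genes with at least 20 reads, with 31 of 222 uridylated.

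The linker histone gene AT1G06760 (chromosome 1, 2076504 to 2077767, minus strand) had the highest percentage of the 34. Its tails were uridylated in 9.09%, 19.0% and 24.1% of 33, 58 and 54 reads, above other mRNAs in each library (odds ratio 2.07, n = 145 reads, adjusted p = 0.00866). Of its 27 uridylated tails, 13 ended in 1 U, 13 in 2 Us and 1 in 3 or more. In the chi-square test the call was lost in replicate 1 alone (adjusted p = 1), without replicate 2 (adjusted p = 0.105), without replicate 3 (0.241) and with poly(A) length class as a further stratum (0.134). The other H1 genes had 17 reads (AT2G30620) and 6 reads (HIS1-3), too few to be tested. RAT5, HTA8, AT5G02570 and AT3G53650, with 6 to 10 reads each, were left out of the tests for the same reason.

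Uridylation followed poly(A) length in histone mRNAs as it did elsewhere. Pooled over libraries, 40.6% of histone tails of 10 to 13 As and 23.5% of those of 14 to 17 As were uridylated, falling to 7.66% at 18 to 21 As and 0.72% above 40. In other mRNAs the same classes had 36.0%, 21.1%, 7.72% and 1.33%. The S-phase type had the higher pooled percentage in each of the 7 length classes. At 14 to 17 As it was 29.2% of 648 reads (95% Wilson interval 25.8 to 32.8%) against 15.9% of 484 (12.9 to 19.4%) for the replacement type, and at 18 to 21 As 10.1% (8.13 to 12.5%) against 3.68% (2.48 to 5.41%). Above 40 As both were under 1% and the intervals overlapped widely. Pooled values give most weight to replicate 1, the deepest library. AT4G40040 gave 1593 of the 2787 reads of the replacement type, so these values describe that gene to a large part. Values by length class without it are not given.

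**Figure D4:**
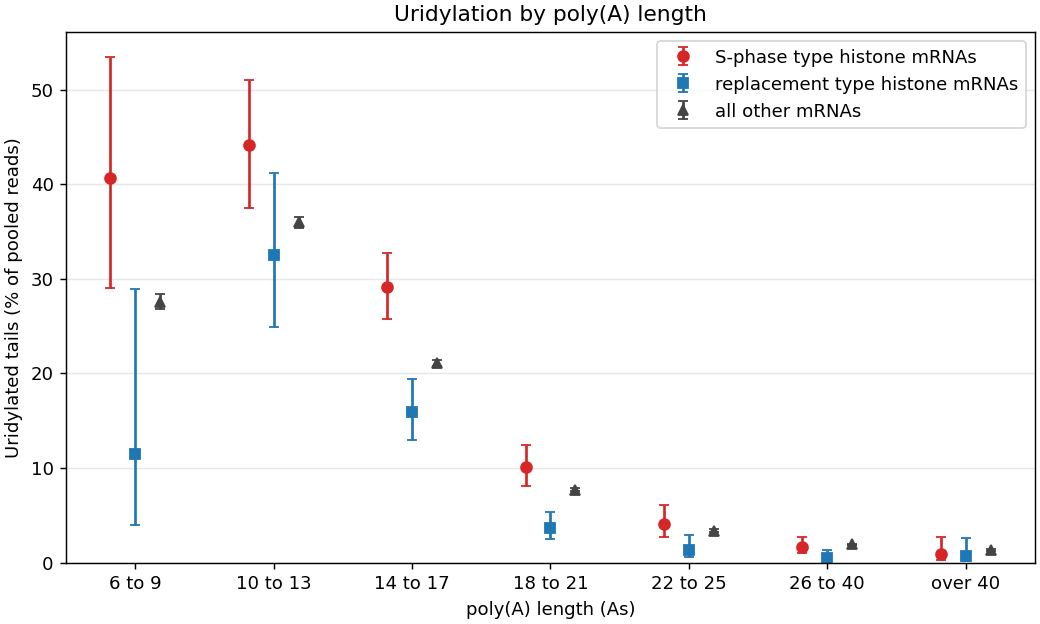
Uridylated tails (% of pooled reads) by poly(A) length class (number of As) for S-phase type histone mRNAs (circles), replacement type histone mRNAs (squares) and all other mRNAs (triangles), with 95% Wilson intervals. At 14 to 17 As the S-phase type is at 29.2%, all other mRNAs at 21.1% and the replacement type at 15.9%.

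Tail lengths of single histone mRNAs leaned to the short side. Poly(A) length without added nucleotides was compared for each mRNA with the van Elteren test, a rank-sum test stratified by library, over 3033 mRNAs. Of all of them 8.54% had longer and 6.23% shorter tails at an adjusted p under 0.05. Of the 34 histone mRNAs 0 were called longer (1 at an unadjusted p under 0.05) and 5 shorter, and 30 of the 34 were on the shorter side, as were 51.6% of all mRNAs. The median probability that a histone tail was longer than a tail of another mRNA of the same library was 0.46, against 0.50 over all mRNAs.

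The 5 with shorter tails came from several types. AT4G40040 (H3.3) had medians of 24, 21 and 22 nt in replicates 1, 2 and 3 (n = 1505 reads, adjusted p = 8.81e-06, van Elteren test). AT5G10980 (H3.3; chromosome 5, 3472405 to 3473570, minus strand) had 22, 20 and 24 nt (n = 149 reads, adjusted p = 0.00946). HTB4 (H2B; chromosome 5, 24126877 to 24128162, plus strand) had 24, 21.5 and 21 nt (0.00836). AT3G53730 (H4) had 24, 24 and 21 nt (0.0116), and HTA9 (H2A.Z; chromosome 1, 19645236 to 19646485, plus strand) 27, 20 and 20 nt (0.0253). Medians of other mRNAs were 26, 23 and 22 nt, so the median of AT5G10980 in replicate 3, of AT3G53730 in replicate 2 and of HTA9 in replicate 1 lay above them. Without replicate 1 only the call of HTA9 was kept, and that call was lost without replicate 2 (0.438) or replicate 3 (0.126), and also when all reads were used and added nucleotides counted as part of the tail (0.215). AT3G53730 also lost its call without replicate 3 (0.0836). In replicate 1 alone the other 4 were called, and HTA9 was on the longer side with an adjusted p of 0.98.

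The extremes in median length were moderate. HIS4, an H4 gene with 56 reads, had the longest pooled median, 28.0 nt, followed by AT5G59690 (H4) and HTA12 (H2A.W) at 27.5 nt. HTA13 (H2A) had the shortest at 21.0 nt, and AT5G10400 (H3.1) was next at 21.5 nt. None of these 5 passed the test of tail length. The median of the medians was 23.5 nt over the histone mRNAs and 24.5 nt (interquartile range 23.0 to 26.5 nt) over all 3033.

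Gene structure also varied by type. In the RefSeq annotation of TAIR10.1, 21 of the 40 histone genes had no intron in their longest mRNA, namely all 5 of H3.1, all 9 of H2B and 7 of 8 of H4, whereas 15.2% of 16491 annotated genes with reads had none. All 6 genes of H3.3 and H2A.Z had introns, as did the 3 canonical H2A genes of this set. Median 3′ UTR lengths were alike, at 269 nt for histones and 275 nt for all. The hexamer AATAAA, searched on the mRNA strand in the last 50 nt of each annotated mRNA, was found in 1 of 40 histone genes (HTA6) and in 9.84% of all.

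Genes of related function were read at low depth. Of 9 further histone loci only 3 had reads, and the 1 that could be tested, HTA2 with 26 reads, was called in neither test. HTA2 bears an H2A symbol, and 1 of its 26 tails was uridylated (3.85%). All 13 histone chaperone genes, whose products carry histones to DNA, had reads. The 4 with at least 20 had a median uridylation of 11.3%, and 0 were called in either test. Of 10 DNA replication genes, 3 could be tested and none was called for uridylation. MCM3, a subunit of the replicative helicase, had longer tails than other mRNAs, with a median of 33.0 nt (n = 37 reads, adjusted p = 0.0348, van Elteren test).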

How the data were processed

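The authors collapsed reads with the same random tag, aligned read 1 to TAIR10 with Hisat2 (2.1.0) and Bowtie2, assigned reads to genes with BEDTools (2.17.5), kept cytosolic mRNAs and extracted tails from read 2 with their own script. Each row of the deposited table gives, for 1 read on 1 gene, lengths in nt that are neither normalized nor pooled. It held 455742 rows, of which 172 repeated rows were dropped. Poly(A) stretches run from 6 As to 91 nt, where the tail fills the read. Added Us appear as A because read 2 is complementary to the RNA.

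Reads assigned to several genes counted once in family values and once per gene in values per mRNA. Per-mRNA tests (minimum of 20 reads, normal or chi-square approximation over reads, Python 3.11.15, scipy 1.17.1) pool reads and do not allow for spread between libraries, except where overdispersion was added. They were also run on simulated reads with planted changes and no added spread between libraries. That run does not show how the tests behave under such spread. Intervals are Wilson 95% intervals, and for 0 uridylated reads the limit is 3 reads of the total. Both cover counting error only. Symbols, positions and gene structure are from RefSeq TAIR10.1, with 16491 of 16577 loci matched.

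Members and lists were chosen with earlier results of these data known. Named were members passing a test, the member with the most reads of each type, and the 2 highest and 2 lowest in uridylation and in median length (ties included); others named to complete a type, and HTB1, GAMMA-H2AX, HTA7 and HTA10, were chosen after their values were seen. Other lists are given as counts with up to 4 named genes.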

Additional observations from a re-analysis of the deposited data

How the results depend on the processing

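The difference between S-phase and replacement type kept its sign in every alternative run. It was 2.87 percentage points when a uridylated tail needed 2 or more Us, 9.48 among tails of 10 to 25 As, and 6.10 to 7.84 when leaving out each replicate. With 2 or more Us, H3.1 exceeded H3.3 by 2.03 and H2A exceeded H2A.Z by 3.50 percentage points. The S-phase type's excess of tails with 2 or more Us went from 12.1 to 18.5 percentage points without AT4G40040 and lay between 8.91 and 14.4 when leaving out each replicate. The difference in median length of these types was -0.33 nt when all reads and added nucleotides counted as tail. With equal weight of mRNAs, histones against other mRNAs differed by -0.98 percentage points in uridylation, by -4.14 in tails with 2 or more Us and by 4.17 in tails of 10 to 25 As. The uridylation difference was 0.38 to 2.56 when leaving out each replicate, and -0.25 to 2.93 among tails of 10 to 25 As, where equal weight gave -1.65; counting only 2 or more Us as uridylation gave -0.56 and -1.03.

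The number of histone mRNAs called above was 4 of 34 tested as reported, where 327 of 3439 mRNAs in all were called. With 2 or more Us it was 1 of 34 (193 of 3439 in all). With length class as stratum it was 2 of 34 (273 of 3439), and at a minimum of 50 reads 5 of 29 (123 of 1474). In replicate 1 alone it was 0 of 31 (97 of 2168). Without replicates 1, 2 and 3 it was 4 of 27, 3 of 34 and 1 of 33 (102 of 1523, 195 of 2835 and 207 of 2807). The 4 without replicate 1 did not include AT3G45930. The number called below was 2 of 34 as reported (198 of 3439 in all). It was 0 of 34 with overdispersion (152 of 3439) and 3 of 34 with 2 or more Us (97 of 3439). Without the 3′RACE-seq mRNAs it was 3 of 34 (212 of 3416). With the same direction required in all libraries it was 1 of 34 (185 of 3439), and in replicate 1 alone 1 of 31 (86 of 2168). Without replicates 1, 2 and 3 it was 0 of 27, 2 of 34 and 1 of 33 (73 of 1523, 145 of 2835 and 134 of 2807). The number with shorter tails was 5 of 34 as reported (189 of 3033 in all) and 3 with the same direction required in all libraries (137 of 3033). Without replicates 1, 2 and 3 it was 1 of 27, 4 of 33 and 3 of 33 (61 of 1299, 167 of 2529 and 180 of 2531). HTA9 turned to longer in replicate 1 alone, with an adjusted p of 0.98 in the van Elteren test. Over all mRNAs, calls above were 327 of 3439 tested as reported and 590 of 6046 at a minimum of 10 reads. They were 123 of 1474 at a minimum of 50 reads, 193 of 3439 with 2 or more Us and 97 of 2168 in replicate 1 alone. Without replicates 1, 2 and 3 they were 102 of 1523, 195 of 2835 and 207 of 2807. Calls below were 198 of 3439 as reported and 73 of 1523 without replicate 1. They were 97 of 3439 with 2 or more Us and 86 of 2168 in replicate 1 alone. Longer tails went from 259 of 3033 to 114 of 1299 without replicate 1, and shorter tails from 189 to 61. The number tested thus changed in each of these alternatives except that with 2 or more Us. Causes beyond that were not tested. Alternatives without AT4G40040, the comparison of S-phase and replacement type among tails of 10 to 25 As, those in replicate 1 alone, without the 3′RACE-seq mRNAs per mRNA, standardised to histone lengths, and all those of H3.1, H2A and the U number of types were chosen after seeing the data.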

Other observations

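The order of histone mRNAs was only partly shared by the libraries. Across the 18 with at least 20 reads in each library, Spearman's rho of the uridylation percentage was 0.62 between replicates 1 and 2, 0.36 between replicates 1 and 3 and 0.44 between replicates 2 and 3. For the median poly(A) length it was 0.26, -0.56 and -0.21. These are descriptions across genes of the same libraries, which differ in read number, and genes are not independent replicates.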
